A study of Mus musculus with 10 samples.

Results

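Aminoacyl-tRNA synthetases join each amino acid to its transfer RNA, the step that sets the genetic code at the ribosome. Animal cells keep a cytosolic set, which serves the proteins made from nuclear genes, and a mitochondrial set, which is encoded in the nucleus, imported and used for the few proteins made inside the organelle. Many cytosolic synthetase genes are also known targets of ATF4, the transcription factor made when amino acids are short or the endoplasmic reticulum is stressed, which binds the letters TGATGNAA together with a C/EBP partner. The 36 synthetase genes described here were found by symbol among 24016 gene symbols. Symbols ending in 2 were taken as mitochondrial (16 genes) and the others as cytosolic (20 genes), and Gars and Kars each encode both forms of their enzyme. The genes were selected on their GRO-seq levels in the 2 media, in which the cytosolic set had been seen to be lower in ENRI, so the differences between media below are a description and not a test of the division.

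The assay for nascent transcription was global run-on sequencing (GRO-seq). Polymerases already on a gene extend labelled RNA in isolated nuclei, and reads fall along the whole gene body. The material was organoids, small epithelial cultures in Matrigel, from mouse duodenum. In the stem cell medium WENRC they received EGF, Noggin, R-spondin, the ligand Wnt3A and CHIR-99021, an activator of Wnt signalling. In the enterocyte differentiation medium ENRI, Wnt3A and CHIR-99021 were left out and IWP-2, which blocks Wnt secretion, was added, so EGF, Noggin and R-spondin were shared. The titles number 2 mice in both media, and mouse strain, age and sex are not given in the sources used here. Each medium had 2 GRO-seq libraries, 1 in each of the batches numbered in the header of the table, and 1 ChIP-seq library of H3K27me3, the repressive histone mark written by Polycomb complex PRC2. No genotype or allele is named in the labels.

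The 4 libraries held 9245915 to 29128101 reads over all transcripts, and both libraries of batch 2 were shallower than those of batch 1. Levels are given as RPKM, reads per kb of gene body scaled to the reads of the library over all transcripts. The WENRC pair correlated at r = 0.949 and the ENRI pair at r = 0.874 across tested genes, which are not independent replicates. Of 15 enterocyte markers, 14 were higher in both ENRI libraries than in both WENRC libraries, and 10 of 10 stem cell markers were lower. Of 8 goblet cell markers, 5 were higher and 2 lower in both ENRI libraries, and their summed level was 10.2 and 7.52 RPKM in WENRC and 46.5 and 30.7 RPKM in ENRI. Most of that difference was in Zg16, a secreted granule protein (0.170 and 0.0593 RPKM against 21.6 and 12.9 RPKM), and Fcgbp, a mucus protein (3.80 and 1.54 RPKM against 13.5 and 8.03 RPKM). The 6 Paneth cell markers summed to 16.3 and 26.2 RPKM in WENRC and 10.5 and 25.1 RPKM in ENRI, with 2 lower and 4 overlapping. The 8 enteroendocrine markers summed to 4.53 and 7.51 RPKM against 5.32 and 11.9 RPKM, with 3 higher, 2 lower and 3 overlapping. Summed levels were 0.0423 to 0.0972 RPKM over 4 endothelial genes and 0.199 to 0.560 RPKM over 5 tuft cell genes. Of 7 mesenchymal genes, Acta2 had 0.615 to 1.41 RPKM and the others were at or below 0.119 RPKM. The 5 immune markers summed to 13.6 and 17.1 RPKM in WENRC and 5.75 and 5.80 RPKM in ENRI. Of these sums the macrophage gene Cd68 made up 13.1, 16.5, 5.25 and 5.47 RPKM. Csf1r had 0.459 and 0.482 RPKM in WENRC and 0.478 and 0.243 RPKM in ENRI, so the media overlapped. Ptprc, which marks leukocytes, stayed at or below 0.0406 RPKM. Whether the cell types of these markers have a part in the synthetase values was not tested. In such bulk cultures, fewer cells of a type and less RNA per cell cannot be told apart.

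The sequences shown first are the places where promoters of cytosolic genes hold the letters TGATGNAA, because the search used no GRO-seq value and found them in cytosolic promoters alone among those matched. RefSeq promoters (build GRCm38.p6, from 250 bases before to 50 after the annotated start) were matched for 27 of 36 members, 13 cytosolic and 14 mitochondrial. The motif, searched on both strands, lay in 5 of 13 cytosolic promoters and in 0 of 14 mitochondrial ones, against 3.97% of 32851 promoters. The 5 were Aars, Gars, Iars, Tars and Yars, of which all but Aars are shown. Each line gives 30 bases, 5′ to 3′ along the gene, with the 8 matched bases in capitals, and the first 3 are matches on the other strand.
Gars: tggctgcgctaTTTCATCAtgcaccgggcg
Tars: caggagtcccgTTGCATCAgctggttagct
Iars: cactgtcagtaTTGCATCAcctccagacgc
Yars: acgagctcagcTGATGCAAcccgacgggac
The first 2 lay before the start, 30 bases before it for Gars (chr6:55037960-55037989, plus strand) and 15 for Tars (chr15:11399655-11399684, minus strand). In Iars (chr13:49682126-49682155, plus strand) and Yars (chr4:129189895-129189924, plus strand) the motif began just after the start, at positions 8 and 4. With the window limited to the 250 bases before the start, 3 of 13 cytosolic and 0 of 14 mitochondrial promoters held it, against 3.45% of all.

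The E-box CACGTG, the site of MYC and related factors, was found in 4 of 13 cytosolic promoters (Aars, Farsb, Iars and Tars) and in 1 of 14 mitochondrial promoters (Ears2), against 7.15% of all promoters. The palindromic motif of NRF1, a regulator of nuclear genes for mitochondrial proteins, lay in 3 of 13 cytosolic promoters (Farsb, Kars and Tars) and 2 of 14 mitochondrial ones (Iars2 and Mars2), against 4.60% of all. TGACGTCA, the cyclic AMP response element, was in 0 of 13 and 0 of 14, against 1.79%. In Tars, after the start, a CACGTG match stood directly before an NRF1 match, with no overlap. A match is a string of letters and says nothing of binding in these organoids.

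Transcription of the cytosolic class was lower in ENRI than in WENRC in both batches. Summed over the 20 genes, the level was 62.8 RPKM in WENRC and 32.2 RPKM in ENRI in batch 1, and 62.7 RPKM and 28.3 RPKM in batch 2. The median gene had 2.65 and 1.28 RPKM in batch 1 and 2.58 and 1.10 RPKM in batch 2. As a log2 read ratio, ENRI over WENRC within a batch and without a pseudocount, the class median was −1.04 in batch 1 and −1.16 in batch 2, while the median of the 11602 genes tested was −0.22 and −0.34. Both ENRI libraries lay below both WENRC libraries in 19 of 20 cytosolic genes, and Qars overlapped. Of all tested genes 49.7% were separated in that direction and 23% in the other, so such separation was common.

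The mitochondrial class was lower by less at its median. Its mean log2 read ratios over both batches ran from −1.57 to 1.47, against −2.10 to −0.02 in the cytosolic class. The value of 1.47 was Iars2 alone, and the next highest was Hars2 at −0.06. Its 16 genes summed to 35.0 and 24.4 RPKM in WENRC and ENRI of batch 1 and to 32.1 and 25.4 RPKM in batch 2. Lars2 and Iars2 held a large part of these sums and moved in opposite directions. The other 14 summed to 12.4 and 9.62 RPKM in the ENRI libraries of batches 1 and 2, and the cytosolic sum was 3.14 and 3.19 times theirs in WENRC and 2.59 and 2.94 times in ENRI. The median log2 read ratio was −0.68 in batch 1 and −1.02 in batch 2. Both ENRI libraries lay below both WENRC libraries in 13 of 16 genes, Iars2 was separated in the other direction, and Fars2 and Hars2 overlapped.

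The cytosolic median was thus below the mitochondrial median by 0.36 on the log2 scale in batch 1 and by 0.14 in batch 2. On log2(RPKM + 0.5), which shrinks the changes of low genes, the gap between the medians was −0.35 and −0.26. The pseudocount thus widened the gap in batch 2 and left it about the same in batch 1. The mitochondrial genes had a median level of 1.16 and 1.09 RPKM in WENRC. A log2 read ratio of −1 or lower in both batches was found for 8 of 20 cytosolic genes (Cars, Gars, Iars, Lars, Mars, Sars, Tars and Vars) and for 2 of 16 mitochondrial genes (Aars2 and Yars2), beside 8.52% of tested genes. Members are not replicates of a class, and no test was run on the gap.

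**Figure D1:**
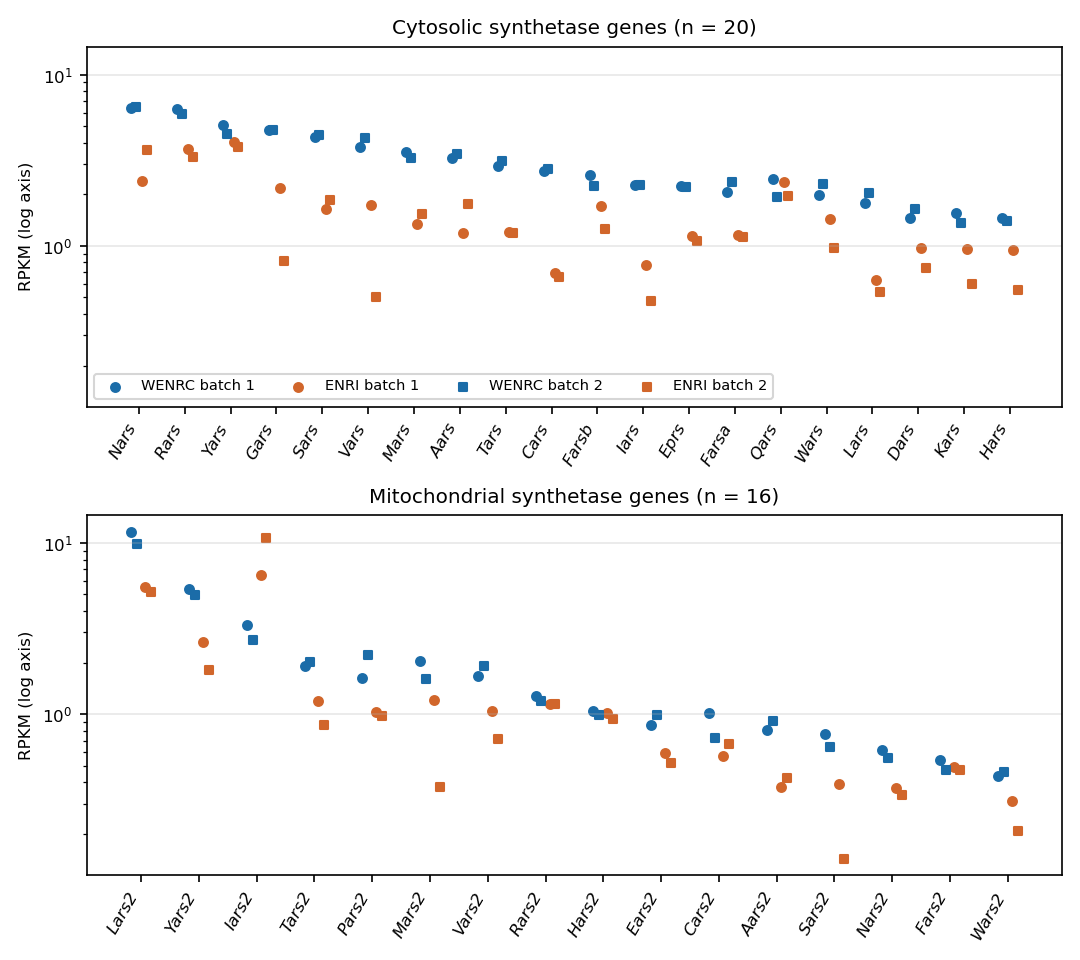
Level of each synthetase gene in each library (RPKM, log axis), cytosolic genes above and mitochondrial genes below, ordered by their WENRC mean; circles are batch 1, squares batch 2, blue WENRC and orange ENRI. In 19 of 20 cytosolic and 13 of 16 mitochondrial genes both orange points lie below both blue points, and for Iars2 both lie above.

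The cytosolic genes known elsewhere as ATF4 targets are taken first, a group of 12 set from background knowledge with earlier results of these data known. All 12 had both ENRI libraries below both WENRC libraries, as did 7 of the other 8 cytosolic genes, beside 49.7% of tested genes. Cars, the cysteine enzyme (mm9 chromosome 7, 150743135 to 150785995, minus strand), had 2.73 and 2.80 RPKM in the WENRC libraries of batches 1 and 2 and 0.695 and 0.661 RPKM in the ENRI libraries. The 2 libraries of each medium were nearly alike, and the WENRC mean was 4.08 times the ENRI mean. Iars, the isoleucine enzyme (chromosome 13, 49777499 to 49829636), had 2.26 RPKM in both WENRC libraries against 0.778 and 0.476 RPKM in ENRI. Lars, the leucine enzyme and a sensor of leucine for mTORC1, had 1.79 and 2.03 RPKM in WENRC against 0.636 and 0.540 RPKM in ENRI. In Iars and Lars the ENRI libraries of both batches were low, with log2 read ratios of −1.54 and −2.25 for Iars and of −1.49 and −1.91 for Lars.

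Gars, the glycine enzyme of both compartments (chromosome 6, 54987995 to 55029498), had 4.73 and 4.78 RPKM in WENRC and 2.19 and 0.821 RPKM in ENRI. Its ENRI libraries were far apart, and the log2 read ratio was −1.11 in batch 1 and −2.54 in batch 2. Sars, the serine enzyme, which also supplies seryl-tRNA for selenocysteine, had 4.32 and 4.45 RPKM in WENRC and 1.63 and 1.84 RPKM in ENRI. Tars, the threonine enzyme, had 2.92 and 3.15 RPKM against 1.21 and 1.18 RPKM. Both were lower to a like extent in the batches, with log2 read ratios of −1.40 and −1.27 for Sars and −1.27 and −1.41 for Tars.

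Nars, Aars and Mars, the asparagine, alanine and methionine enzymes, differed more in batch 1 than in batch 2. Nars, the cytosolic gene with the highest WENRC mean, had 6.42 and 6.43 RPKM in WENRC and 2.38 and 3.61 RPKM in ENRI. Aars had 3.24 and 3.46 RPKM in WENRC and 1.19 and 1.77 RPKM in ENRI, and Mars had 3.53 and 3.25 RPKM against 1.35 and 1.53 RPKM. The tail of Mars overlaps by 67 bp on the other strand with Ddit3, the stress factor CHOP, whose level was 10.2 and 12.7 RPKM in WENRC and 7.73 and 15.4 RPKM in ENRI and so did not separate the media. Eprs, the fused enzyme for glutamate and proline, had 2.22 and 2.20 RPKM in WENRC and 1.14 and 1.06 RPKM in ENRI, which are log2 read ratios of −0.96 and −1.05.

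By the mean log2 read ratio of both batches, Wars and Yars were the least changed of the 12, although in batch 2 Wars, at −1.25, was lower than several others. Wars, the tryptophan enzyme and also an interferon-induced gene, had 1.98 and 2.30 RPKM in WENRC and 1.43 and 0.968 RPKM in ENRI. Yars, the tyrosine enzyme, had 5.06 and 4.51 RPKM against 4.06 and 3.76 RPKM, and its log2 read ratios of −0.32 and −0.26 were close to those of the median tested gene. Yars is 1 of the 5 genes whose promoter holds TGATGNAA, and the log2 read ratios of all 5 lay between −0.26 and −2.54. Mars (−1.39 and −1.08), Sars (−1.40 and −1.27), Dars, Eprs, Farsa, Farsb and Kars, matched without the motif, also lay in that range in both batches. Qars (−0.07 and 0.03), also matched without it, did not. Cars, Hars, Lars, Nars, Rars, Vars and Wars had no promoter matched, and a relation between motif and change was not tested. Among 16 interferon response genes, 6 were higher and 3 lower in both ENRI libraries, beside 23% and 49.7% of tested genes, and 7 overlapped. Of the 16, 9 were high enough to be tested, and a part of interferon in the Wars value was not tested.

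The other 8 cytosolic genes had median log2 read ratios of −0.66 in batch 1 and −1.10 in batch 2, against −1.40 and −1.26 in the 12. The gap between the groups was thus wide in batch 1 and narrow in batch 2. A ratio of −1 or lower in both batches was found for 7 of the 12 and for 1 of the 8, Vars, beside 8.52% of tested genes. Vars, the valine enzyme (chromosome 17, 35137852 to 35153274), had 3.78 and 4.29 RPKM in WENRC and 1.74 and 0.505 RPKM in ENRI. As in Gars, the ENRI library of batch 2 was much the lowest, with 123 reads, and the log2 read ratio went from −1.12 in batch 1 to −3.09 in batch 2.

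Rars, the arginine enzyme, was among the more transcribed members, with 6.29 and 5.86 RPKM in WENRC and 3.66 and 3.29 RPKM in ENRI. Dars, the aspartate enzyme, had 1.46 and 1.63 RPKM against 0.966 and 0.743 RPKM. Kars, the lysine enzyme of both compartments, had 1.57 and 1.36 RPKM against 0.956 and 0.601 RPKM, and Hars, the histidine enzyme, had 1.45 and 1.40 RPKM against 0.945 and 0.555 RPKM. In each of these 4 genes the ENRI libraries were the lower pair. Farsa and Farsb encode the subunits of the phenylalanine enzyme, and their log2 read ratios were −0.83 and −1.06 for Farsa and −0.59 and −0.84 for Farsb. The long Farsb transcript runs 2328 bp into Sgpp2 on the other strand, and the shorter one gave −0.65 and −1.21.

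Qars, the glutamine enzyme (chromosome 9, 108410336 to 108418272), was the cytosolic gene that did not separate the media. It had 2.47 and 1.92 RPKM in WENRC and 2.36 and 1.96 RPKM in ENRI, with 141 to 545 reads. Its ratio of ENRI to WENRC was 0.955 in batch 1 (95% interval for counting error 0.845 to 1.08) and 1.02 in batch 2 (0.827 to 1.27). Both ENRI values lay between the WENRC values, and the sign of its fitted change turned with the scaling of the libraries and with the libraries kept. Animal mitochondria have no glutamine enzyme of their own and make glutaminyl-tRNA from glutamyl-tRNA with an amidotransferase, whose subunit genes are given further on.

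**Figure D2:**
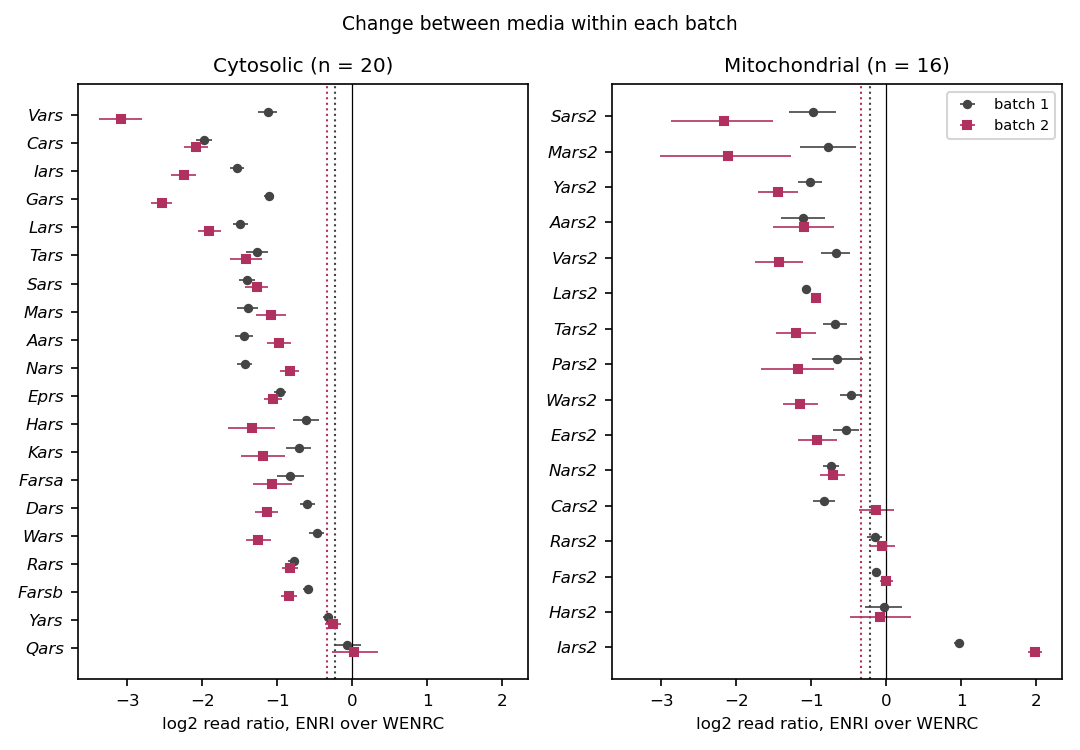
Log2 read ratio of ENRI over WENRC for each gene, by batch, with exact binomial 95% intervals for counting error; dotted lines mark the median of all tested genes (−0.22 in batch 1 and −0.34 in batch 2). Vars and Gars are far lower in batch 2 than in batch 1, Qars lies at 0, and Iars2 is the gene far to the right.

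The multisynthetase complex holds 8 of the cytosolic synthetases (Dars, Eprs, Iars, Kars, Lars, Mars, Qars and Rars). Their median log2 read ratio was −0.87 in batch 1 and −1.11 in batch 2, against −1.12 and −1.26 for the 12 cytosolic genes outside it. Of the 3 scaffold genes of the complex, Aimp1 and Aimp2 were lower by less than both of these medians in both batches and Eef1e1 in batch 1 alone. Aimp1 had 1.32 and 1.25 RPKM in WENRC and 1.01 and 1.20 RPKM in ENRI, and Aimp2 had 3.62 and 2.99 RPKM against 2.61 and 2.59 RPKM. Eef1e1, the third scaffold gene, had 1.91 and 2.00 RPKM against 1.19 and 0.784 RPKM, with log2 read ratios of −0.67 and −1.35. Split by the fold of the catalytic domain, 9 class I genes had medians of −1.12 and −1.25 and 10 class II genes −0.97 and −1.16, with Eprs, which joins both folds, left out.

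Among the mitochondrial genes, Lars2, the leucine enzyme, had the highest level of all members in WENRC, 11.6 and 9.80 RPKM, and 5.52 and 5.14 RPKM in ENRI. The level in ENRI was 0.475 times that in WENRC in batch 1 (0.466 to 0.484) and 0.524 times in batch 2 (0.508 to 0.541). The share of reads on the ribosomal RNA precursor gene Rn45s was also higher in WENRC, 1.54% and 2.13% against 0.993% and 0.985% in ENRI, and its part in the Lars2 value was not tested. Yars2, the tyrosine enzyme, had 5.37 and 4.96 RPKM in WENRC and 2.65 and 1.82 RPKM in ENRI. Aars2, the alanine enzyme, had 0.807 and 0.911 RPKM against 0.375 and 0.425 RPKM. In these 3 genes both ENRI libraries lay below both WENRC libraries. The log2 read ratios in batch 1 and batch 2 were −1.11 and −1.10 for Aars2, −1.07 and −0.93 for Lars2 and −1.02 and −1.44 for Yars2, and the counting intervals of the batches overlapped for Aars2 but not for Lars2 and Yars2.

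Several mitochondrial genes were lower in ENRI in both batches, with the more negative ratio in batch 2. Sars2, the serine enzyme, had 0.767 and 0.645 RPKM in WENRC and 0.389 and 0.144 RPKM in ENRI. Mars2, the methionine enzyme, is a gene of 2.88 kb with few reads, and it had 2.06 and 1.61 RPKM in WENRC and 1.20 and 0.374 RPKM in ENRI. The low ENRI values of batch 2 rest on 27 reads for Sars2 and 17 for Mars2, and the Mars2 ratio there was 0.232 with a counting interval of 0.124 to 0.414. Vars2, the valine enzyme, had 1.66 and 1.92 RPKM against 1.04 and 0.715 RPKM, and Tars2, the threonine enzyme, 1.92 and 2.00 RPKM against 1.19 and 0.870 RPKM. Pars2 (proline), Wars2 (tryptophan) and Ears2 (glutamate) had log2 read ratios of −0.47 to −0.65 in batch 1 and −0.92 to −1.18 in batch 2. Cars2, the cysteine enzyme, went the other way, with −0.83 in batch 1 and −0.13 in batch 2, and Nars2, the asparagine enzyme, gave −0.73 and −0.72. A more negative ratio in batch 2 than in batch 1 was found in 14 of 20 cytosolic and 9 of 16 mitochondrial genes. The share over all tested genes was not counted, and their median ratio was also lower in batch 2 (−0.34) than in batch 1 (−0.22).

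Rars2, Hars2 and Fars2 were near the same level in both media. Rars2, the arginine enzyme, had 1.28 and 1.19 RPKM in WENRC and 1.15 RPKM in both ENRI libraries. Hars2, the histidine enzyme, had 1.05 and 0.991 RPKM against 1.02 and 0.935 RPKM. Fars2, the phenylalanine enzyme and the longest member at 420 kb, had 0.542 and 0.471 RPKM against 0.493 and 0.471 RPKM. The ENRI values of Hars2 and Fars2 overlapped those of WENRC, and the sign of the fitted change of Rars2 and Hars2 turned under other scalings. Hars and Hars2 start 75 bp apart on opposite strands, and in batch 2 the log2 read ratio was −1.34 for Hars and −0.08 for Hars2.

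Iars2, the isoleucine enzyme (chromosome 1, 187110541 to 187153280, minus strand), was the member with higher levels in ENRI. It had 3.33 and 2.70 RPKM in WENRC and 6.49 and 10.6 RPKM in ENRI. Its ratio of ENRI to WENRC was 1.95 in batch 1 (1.88 to 2.03) and 3.94 in batch 2 (3.69 to 4.20). Both ENRI libraries were above both WENRC libraries, and the gap was wider in batch 2. The microRNA genes Mir215 and Mir194-1 lie inside Iars2 on the other strand, and both microRNAs are known from intestinal epithelium. Their mature sequences in RefSeq are shown as the products listed for these genes, with the seed, bases 2 to 8, in capitals.
mmu-miR-215-5p: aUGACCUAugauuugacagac
mmu-miR-194-5p: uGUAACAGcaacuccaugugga

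The Mir215 interval of 110 bp held 66 and 16 reads in WENRC and 293 and 429 reads in ENRI, or 23.2 and 15.7 RPKM against 91.4 and 247 RPKM. The Mir215 ratio of ENRI to WENRC was 3.94 in batch 1 (3.01 to 5.23) and 15.7 in batch 2 (9.56 to 27.7). Mir194-1, of 66 bp, held 23 and 0 reads in WENRC and 106 and 56 reads in ENRI. Both microRNA intervals were higher in both ENRI libraries. Genes of at least 10 reads that lie inside another gene were compared with that host. On the same strand, the inner gene had more reads in 0 to 2 of 591 to 685 pairs per library. On the opposite strand it had more in 0 of 290 to 343 pairs, as counting without regard to strand would give. Reads of the strand opposite to Iars2 would then be part of its value, and how large that part is was not tested. Rab3gap2, which overlaps the end of Iars2 by 84 bp, had 1.04 and 0.994 RPKM in WENRC and 1.12 and 1.13 RPKM in ENRI.

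**Figure D3:**
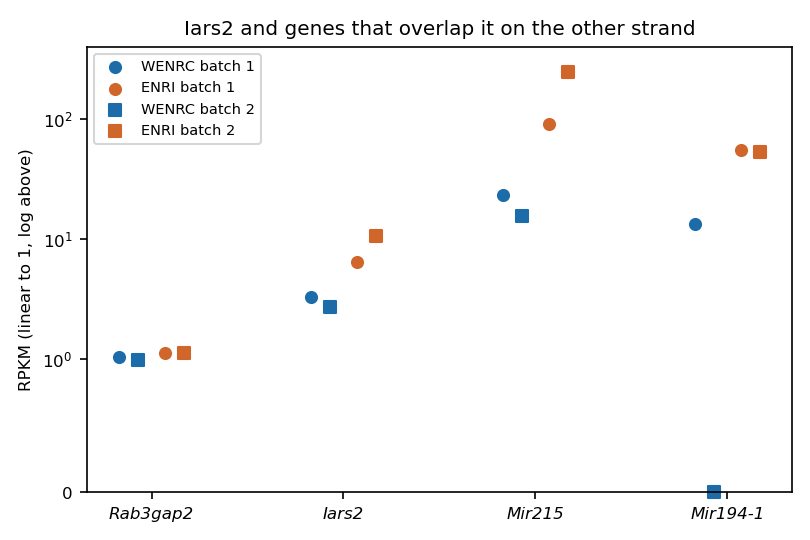
RPKM in each library of Iars2 and of the 3 genes that overlap it on the other strand (linear up to 1, log above; circles batch 1, squares batch 2; blue WENRC, orange ENRI). Iars2, Mir215 and Mir194-1 are higher in both ENRI libraries, Mir194-1 has 0 reads in WENRC batch 2, and Rab3gap2 stays between 0.994 and 1.13 RPKM.

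Set side by side, 13 amino acids have a cytosolic and a mitochondrial gene of the same symbol. The cytosolic gene had the lower log2 read ratio in both batches in 8 pairs (Cars, Hars, Iars, Lars, Nars, Rars, Tars and Vars with their partners) and the higher one in both batches in 1 pair, Yars and Yars2. The remaining 4 pairs (Aars, Mars, Sars and Wars) turned between batches. The median difference, cytosolic minus mitochondrial, was −0.58 in batch 1 and −0.21 in batch 2. After Iars, the pair with the widest difference was Cars and Cars2, at −1.15 and −1.95. The pair of Yars and Yars2 was at 0.70 and 1.18. In Mars and Mars2 the difference was −0.62 in batch 1 and 1.03 in batch 2, where Mars2 had 17 reads in ENRI.

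**Figure D4:**
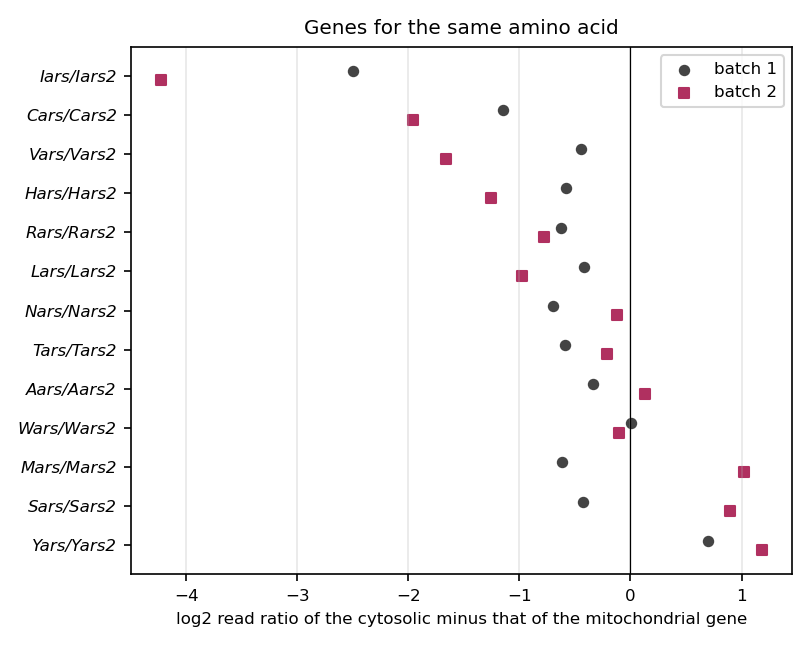
Difference between the log2 read ratios (ENRI over WENRC) of the cytosolic and the mitochondrial gene for the same amino acid, 13 pairs, circles batch 1 and squares batch 2. Points left of 0 mean that the cytosolic gene was lowered more, which holds in both batches for 8 pairs, and Yars/Yars2 lies right of 0 in both.

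Charging genes outside the 36 had mostly lower levels in ENRI too. The amidotransferase subunit genes Qrsl1, Pet112 and Gatc had log2 read ratios of −0.82 to −0.59 in batch 1 and −0.78 to −0.64 in batch 2, and Tarsl2, a relative of Tars, −0.72 and −1.35. Mtfmt, which formylates the mitochondrial initiator tRNA, had −0.09 and 0.62 and overlapped between media. In 4 of 5 genes of this list both ENRI libraries were the lower pair, beside 49.7% of tested genes. Tarsl2, Qrsl1 and Pet112 had only 0.142 to 0.576 RPKM, and 2 genes of the list were high enough to be tested.

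The translation machinery of both compartments had negative medians as well. The median log2 read ratios in batch 1 and batch 2 were −0.68 and −0.99 for 12 cytosolic elongation and termination genes, −0.65 and −1.17 for 25 initiation genes, −0.61 and −0.88 for 10 mitochondrial translation factors and −0.57 and −0.50 for 12 mitochondrial tRNA processing genes. Both ENRI libraries were the lower pair in 10 of 12, 19 of 25, 8 of 10 and 10 of 12 of them, beside 49.7% of tested genes. Of these lists, 11, 25, 8 and 12 genes were high enough to be tested. Eif6, an anti-association factor of the large ribosomal subunit, was the gene higher in both ENRI libraries, at 8.89 and 8.80 RPKM against 5.24 and 4.73 RPKM. Both cytosolic synthetase medians in batch 1 and batch 2, −1.04 and −1.16, lay below those of 3 of these lists, and the initiation genes had −1.17 in batch 2.

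The ATF4 branch outside the synthetases was lower by more. Its 25 genes had medians of −1.88 in batch 1 and −2.38 in batch 2. Both ENRI libraries were the lower pair in 18 and the higher pair in 1, Cebpg, beside 49.7% and 23% of tested genes. Asns, asparagine synthetase, had 3.61 and 3.84 RPKM in WENRC and 0.780 and 0.528 RPKM in ENRI. Chac1, a glutathione-degrading enzyme, had 7.22 and 9.40 RPKM against 0.468 and 0.513 RPKM, and Slc7a5, a carrier of large neutral amino acids, 5.65 and 6.50 RPKM against 0.886 and 0.866 RPKM. Trib3, a pseudokinase that feeds back on ATF4, had 4.65 and 5.41 RPKM against 1.27 and 3.15 RPKM. Atf4 itself, whose protein is regulated largely at translation, had 29.4 and 30.1 RPKM in WENRC and 22.3 and 35.5 RPKM in ENRI, so the media overlapped. The 4 kinase genes that start this branch did not move alike. Eif2ak4, the sensor of uncharged tRNA, had 0.740 and 0.767 RPKM against 0.458 and 0.394 RPKM, and Eif2ak2, the sensor of double-stranded RNA, had log2 read ratios of −0.26 and −0.38. Eif2ak1, the heme-regulated kinase, was higher in both ENRI libraries (0.15 and 0.53), and Eif2ak3, the kinase of endoplasmic reticulum stress, overlapped (0.02 and −0.57).

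**Figure D5:**
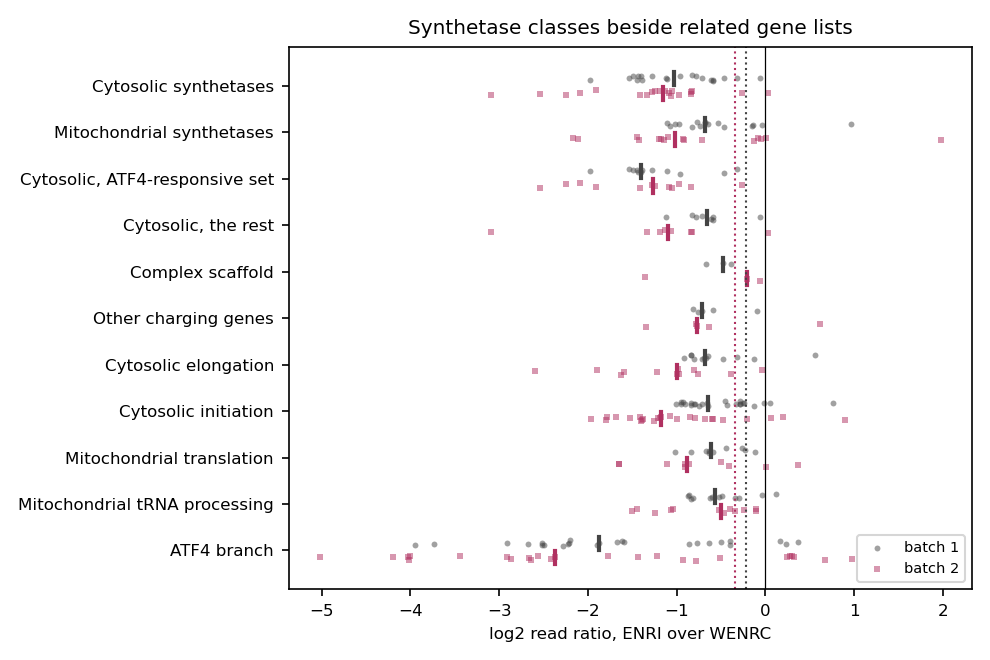
Log2 read ratios of ENRI over WENRC for the genes of each list, circles batch 1 and squares batch 2, with a bar at each list's median and dotted lines at the medians of all tested genes. The cytosolic synthetases have medians of −1.04 and −1.16, the mitochondrial ones −0.68 and −1.02, and the ATF4 branch −1.88 and −2.38.

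In the fit over all genes, 0 members passed. Of 36 members, 34 had at least 0.5 RPKM in at least 2 libraries and were tested, Fars2 and Wars2 stayed below, and Aars2, Nars2 and Sars2 passed that filter through their WENRC libraries alone. With limma on log2(RPKM + 0.5), 17 of 11602 genes (0.147%) had a Benjamini-Hochberg adjusted p under 0.05, while 27 of the 34 members and 4521 genes had an unadjusted p under 0.05. Cars came closest, with a log2 change of −1.47 ± 0.12 (SE, limma adjusted p = 0.0518), and Iars2 had 1.33 ± 0.30 (adjusted p = 0.0635). The limma count of members changed with the library left out, as did the count over all genes, and such fits hold 1 library in a medium. The log2 change of Cars was −1.49 without the WENRC or the ENRI library of batch 1. Without the WENRC library of batch 2 it was −1.46. DESeq2 called 10 cytosolic and 2 mitochondrial genes lower (8.88% of tested genes) and Iars2 higher (14.7% of tested genes). EdgeR's quasi-likelihood test called 6 cytosolic genes lower (2.84%) and Iars2 higher (5.6%), and with the batch as a block it called Cars, Iars and Lars lower (2.67%) and 0 members higher (5.26%). In the authors' deposited table, from edgeR with a batch term, Cars, Gars, Iars, Lars, Sars and Vars were lower at an FDR under 0.05 (4.57% of tested genes) and Iars2 was higher (8.16%). These calls come from the contrast in view when the genes were listed and are read here as a description.

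The H3K27me3 lists were not used in choosing the genes. Within 2 kb of the start, 0 of 36 members had a broad H3K27me3 region in WENRC and 0 of 36 in ENRI, against 3.13% and 2.9% of tested genes and 10.5% and 8.76% of all genes. With 1 library per medium there was no replicate check. In the lists of narrow regions, 0 members were marked in WENRC (6.19% of tested genes) and 1 in ENRI (6.45%). This was Pars2, where a region of 1576 bp ended 1434 bp before the start, with 4.05-fold enrichment over input by the authors' value. Fars2 held 3 narrow regions in WENRC deep in its gene body, 133 to 138 kb from the start, with 4.28-fold to 5.52-fold enrichment by the same measure.

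A minority of the members had a start close to that of another gene. Head-to-head starts were counted, where a gene on the other strand starts within 1000 bp upstream and runs away. They were found at 4 of 20 cytosolic genes (20%) and 5 of 16 mitochondrial genes (31.2%), against 14.2% of tested genes. Hars and Hars2 counted each other. Kars and Terf2ip start 5 bp apart, Rars2 and Orc3 16 bp, Wars and Wdr25 98 bp, Ears2 and Ubfd1 135 bp, Sars2 and Mrps12 187 bp, Fars2 and Lyrm4 286 bp and Yars and S100pbp 313 bp. Partners did not always move alike. Terf2ip, a telomere protein, had log2 read ratios of 0.27 and −0.01 beside −0.71 and −1.18 for Kars, and Ubfd1 had 0.04 and 0.40 beside −0.54 and −0.92 for Ears2. Wdr25 had −0.51 and −1.54, close to the −0.47 and −1.25 of Wars.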

How the data were processed

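Signal was deposited by the authors as scaled reads per RefSeq transcript over whole gene bodies in mm9, counted with HOMER, per the file headers. FastQC, Bowtie, Bowtie2, HOMER 4.3 and edgeR stand in the submitters' processing notes. Each deposited signal column has the same total, and 100% of its low values are whole multiples (tolerance 0.1) of what 1 read is worth, so whole reads were recovered. The other 4 columns of per-sample values, the authors' RPKM, were not used here. The deposited log2 fold changes, p-values and FDR came from edgeR with batch as a term, per the file headers. The H3K27me3 regions were called with HOMER against input, and their deposited fold ratio over input and score, the tags of the best window, are the authors' per the file headers.

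RPKM was recomputed as scaled reads per kb of gene body per column total, on the longest of 33022 transcripts per symbol. Genes reaching 0.5 RPKM in 2 or more libraries entered limma 3.58.1 (R 4.3.3, trend, two-sided, pseudocount 0.5, no block, Benjamini-Hochberg threshold 0.05). Ratios have exact binomial 95% intervals, which cover counting error only, since PCR reads are not independent molecules. Coordinates are those of the authors' table in mm9. Promoter and microRNA sequences came from RefSeq tables of another build and were matched by gene. The fitting script was tested on simulated data.

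Groups came from titles. Columns name the medium and the header batch, not the mouse. Deviations from the group means of same-batch libraries correlated at 0.0126, and whether libraries came from separate cultures is not stated, so p-values measure the spread between these libraries. The members, lists and tests were chosen with earlier results of these data known. The text names each member, up to 2 genes of each other list by size of change, and Tarsl2, Qrsl1, Pet112, Gatc, Mtfmt, the scaffold genes, Atf4, Asns, Chac1, Trib3 and Slc7a5. Cebpg, Zg16, Fcgbp, the EIF2 kinase genes, Cd68, Csf1r, Ptprc and neighbours of members were named after their values were seen. Alternatives were pseudocounts, filters, scalings, the block, edgeR 4.0.16, DESeq2 1.42.0, other transcripts and each library left out. The input and H3 samples were not analysed here, and some genes and sequences are not reported here.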

Additional observations from a re-analysis of the deposited data

How the results depend on the processing

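No setting turned the sign of a class median or of the gap between classes. On log2(RPKM + 0.5) the medians were −0.87 for cytosolic genes, −0.51 for the 16 mitochondrial genes (−0.63 for the 14 tested) and −0.36 for the gap. Pseudocounts of 0.1 and 1 gave −1.03 and −0.74 for cytosolic and −0.75 and −0.36 for mitochondrial genes, with a gap of −0.28 at 0.1. Quantile normalization gave −0.83, −0.34 and −0.49 for cytosolic genes, the 14 tested mitochondrial genes and the gap. Median centring gave −0.72 and −0.36 for the classes. EdgeR gave −0.80, −0.68 and −0.12, with the replicate block −0.82, −0.68 and −0.15, and DESeq2 −0.77, −0.65 and −0.12, over the 14 tested mitochondrial genes. The median over all genes was −0.21 in limma and −0.0029 in DESeq2, and relative to it the cytosolic median was −0.66 and −0.77. Alternatives chosen after the data were seen gave −1.07, −0.86 and −0.21 for read ratios and −0.97 and −0.63 for the classes without members that overlap a gene on the other strand. Without Gars, Kars and Farsb the cytosolic median was −0.97 and the gap −0.46. Gars (−1.48) lay below the full cytosolic median and Kars (−0.63) above it, so leaving out only both of these does not move it. The shift came with the removal of Farsb (−0.56). Leaving out each library gave −0.88 to −0.84, −0.54 to −0.41 and −0.44 to −0.32 for cytosolic genes, mitochondrial genes and the gap. With each library divided by its median, 19 cytosolic and 11 mitochondrial genes had both ENRI libraries below both WENRC libraries, and leaving out each library gave 19 to 20 and 13 to 15.

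Against 17 genes and 0 members in limma, the calls were 1 gene at a pseudocount of 0.1, 0 without the filter (5201 at an unadjusted p under 0.05), 1491 genes and 10 members with at least 10 reads, 925 and 7 after quantile normalization, and 0 genes with the replicate block (3837 unadjusted). EdgeR called 979 genes and 7 members, with the replicate block 920 and 3, and DESeq2 2736 and 13. Calls were 0 genes without either WENRC library (1674 and 1352 unadjusted), 5792 genes and 27 members without the ENRI library of batch 1 and 672 and 8 without that of batch 2, where the lone library was assumed to vary like the other pair. Of the calls 10 were lower and 7 higher in limma, 421 and 504 after quantile normalization, 5 and 7 after median centring, 329 and 650 in edgeR and 1030 and 1706 in DESeq2. The pairing of libraries by batch rests on the header alone.

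Of 510 values for the 34 tested members under these settings, 417 kept their direction and side of the threshold, 75 also passed it and 18 reversed, in 3 members. Qars, at −0.01, was 0.060 after quantile normalization, 0.13 after median centring, 0.22 in edgeR, 0.23 with the replicate block, 0.25 in DESeq2, and −0.16 to 0.13 with 1 library left out. Hars2, at −0.04, was 0.16, 0.11, 0.18, 0.19 and 0.21 in the first 5 of these and −0.081 to 0.0025 with 1 library left out. Rars2, at −0.07, was 0.097, 0.075, 0.14, 0.14 and 0.17 in the first 5. The cause was not tested. Narrow lists gave 1 member with H3K27me3 in ENRI. Precision was limited by 2 libraries per medium and, for Mars2 and Sars2, by under 30 reads in 1 library.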
